A study of Mus musculus with 8 samples.

Results

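The loading of microRNAs (miRNAs) onto AGO2 was compared between resting and proliferating B cells of the mouse spleen. For each miRNA gene the quantity measured is the change of AGO2 enrichment, defined as the log2 ratio of immunoprecipitate (IP) over input in resting cells minus the same log2 ratio in proliferating cells. A positive change means a larger IP over input in resting cells, and a change of 1 on this scale is a doubling of that ratio. All 8 libraries of the study enter it, 2 in each of 4 groups: resting input, resting IP, proliferating input and proliferating IP. All animals were Ago2HA/HA, so every library, inputs included, comes from cells in which both alleles of Ago2 encode the HA epitope that the IP antibody binds. Untouched B cells were enriched from spleen by negative selection with CD43, and the proliferating cells were cultured after activation in vitro. The sources used here do not give the agent and the time of activation, the age of the mice or whether animals were pooled. Cells from animals without the epitope yielded no RNA in the IP, per the labels, so no library of a mock IP enters the comparison.

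Of the 2202 miRNA features in the count tables, 560 had a count and 219 had enough counts to be tested. Library totals ran from 213418 counts in proliferating input replicate 2 to 1681148 in resting IP replicate 1, and the log2 CPM of replicate libraries (CPM being a count scaled to the TMM-adjusted total of its library) had an r of 0.960 to 0.981 across features. Most of the estimated spread was shared over features (36.6 prior against 4 residual degrees of freedom), and no label says whether replicates stem from different mice, so the p-values reflect only how far these libraries differ, which may be a technical spread. The tables hold miRNA genes only, so B cell identity itself could not be checked. Mir150 and Mir155, a mature lymphocyte miRNA and an activation-induced one, speak to the state of lymphocytes and are not particular to B cells. Mir150 stood at 308628 and 287038 CPM in the resting inputs and at 22434 and 28792 CPM in the proliferating inputs, while Mir155 stood at 12156 and 10224 CPM against 119691 and 110979 CPM. Mir142 and Mir191, other abundant blood cell miRNAs, had no count in any library, but each overlaps another feature of the tables that holds counts, so these zeros do not give their levels. The level of a miRNA in bulk RNA does not separate fewer expressing cells from less RNA per cell, and a state and its count table coincide.

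A miRNA is cut from a hairpin precursor as a duplex of about 22 nt, and 1 strand of it is kept by an Argonaute protein such as AGO2. The bases at positions 2 to 8 of the kept strand, the seed, pair with messenger RNAs, which are then repressed or degraded, so that miRNAs with the same seed form a family with shared targets. The level of a miRNA in the AGO2 IP relative to the input therefore reads its loading relative to that of other miRNAs, and not its amount in the cell. In lymphocytes, let-7, miR-150 and miR-26 are known for high levels in quiescent cells, and the miR-17 clusters and miR-155 for induction upon activation.

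The mature sequences below belong to genes that the comparison names, with the seed in capitals. The counts cover both arms of a hairpin together, so the arm shown for each gene is the one its family is known for and not one read from these data. The sequences come from RefSeq (GRCm38.p6), and a mature sequence was matched for 201 of the 219 features. The let-7 family is shown because 6 of its tested genes were called, with let-7j as a near copy outside the seed family.
let-7b-5p: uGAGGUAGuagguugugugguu
let-7i-5p: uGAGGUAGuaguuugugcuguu
let-7f-5p: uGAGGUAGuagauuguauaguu
let-7g-5p: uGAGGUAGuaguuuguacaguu
let-7d-5p: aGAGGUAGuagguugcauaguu
miR-98-5p: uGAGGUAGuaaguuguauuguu
let-7j: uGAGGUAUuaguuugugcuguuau
The miR-26 and miR-200 sequences are shown because miR-26 shares 1 seed among its members, whereas miR-200 is split into 2 seeds.
miR-26b-5p: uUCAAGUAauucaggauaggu
miR-26a-5p: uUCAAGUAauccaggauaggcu
miR-200b-3p: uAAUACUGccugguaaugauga
miR-200c-3p: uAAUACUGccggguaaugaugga
miR-429-3p: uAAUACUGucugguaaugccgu
miR-200a-3p: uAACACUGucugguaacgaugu
miR-141-3p: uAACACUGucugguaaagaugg
The sequences of miR-17, miR-20b, miR-93, miR-23a and the miR-27 pair belong to features with a smaller ratio in resting cells, or to their closest relatives.
miR-17-5p: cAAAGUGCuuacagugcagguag
miR-20b-5p: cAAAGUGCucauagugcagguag
miR-93-5p: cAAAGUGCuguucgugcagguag
miR-23a-3p: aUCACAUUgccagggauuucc
miR-27a-3p: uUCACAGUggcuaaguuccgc
miR-27b-3p: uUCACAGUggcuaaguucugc

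AGO2 enrichment differed between the states for 38 of the 219 features (17.4%) at an adjusted p under 0.05 (edgeR's quasi-likelihood test of the interaction, Benjamini-Hochberg over all 219). IP over input was larger in resting cells for 17 features (7.76%), among them let-7, miR-26 and miR-200 genes. It was smaller for 21 (9.59%), among them Mir17, Mir23a and Mir3964. The median change over all 219 features was -0.17, from a median log2 IP over input of -0.05 in resting and 0.11 in proliferating cells, so a change of 0 lies 0.17 above the median feature. Centring every feature on that median gave 19 larger and 16 smaller ratios. The median change of the features called larger was 2.18 and that of the features called smaller was -1.79.

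The 38 features differed in the state in which IP against input was itself called. A missing call does not show that IP and input were equal. Whatever the calls, log2 IP over input had opposite signs in the 2 states for 13 of the 17 larger and 13 of the 21 smaller ones. Among the 17 with a larger ratio in resting cells, 8 were enriched in the resting IP with no call in proliferating cells, 6 were depleted from the proliferating IP with no call in resting cells, and Mirlet7b and Mirlet7g were called in both, in opposite directions. Mir5099 was below its input in both states, less so in resting cells. Among the 21 with a smaller ratio, 8 were depleted from the resting IP with no call in proliferating cells. Another 8 were enriched in the proliferating IP with no call in resting cells, and Mir17 was called in both, in opposite directions. The last 4, Mir29c, Mir5121, Gm24148 and ENSMUSG00000105167.1, were depleted in both states and further in resting cells. Within a state, IP differed from input for 63 features (28.8%) in resting cells, higher for 29 (13.2%) and lower for 34 (15.5%). In proliferating cells it did for 59 (26.9%), higher for 29 (13.2%) and lower for 30 (13.7%). These tests share their libraries with the change itself. Setting each IP library against each input library gives 4 log2 ratios per state, and these ratios did not overlap between the states for 92 features (42.0%), with the resting ones higher for 39 (17.8%) and lower for 53 (24.2%).

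The number of features called changed when single libraries were left out. It was 24 without resting input replicate 1, 15 without proliferating input replicate 1, 21 without proliferating input replicate 2 and 20 without proliferating IP replicate 1. The features called larger in resting cells numbered 10 without proliferating input replicate 1 and 9 without proliferating input replicate 2. Those called smaller numbered 33 without resting IP replicate 2, 12 without proliferating input replicate 2, 10 without resting input replicate 1, 8 without proliferating IP replicate 1 and 5 without proliferating input replicate 1. Without proliferating input replicate 1, 9 of the 17 and 5 of the 21 calls remained. Scaling to library totals gave 20 larger and 7 smaller ratios, and upper-quartile factors gave 15 and 7. Under these 2 scalings the median of all features stood at 0.19 and 0.13. Under the 4 other scalings and with each of the 8 libraries left out in turn, 11 features were called every time: Mirlet7b, Mirlet7f-2, Mirlet7g, Mirlet7i, Mir26a-2, Mir26b and Mir200b with a larger ratio in resting cells, and Mir17, Mir23a, Mir3964 and ENSMUSG00000105167.1 with a smaller one.

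**Figure D1:**
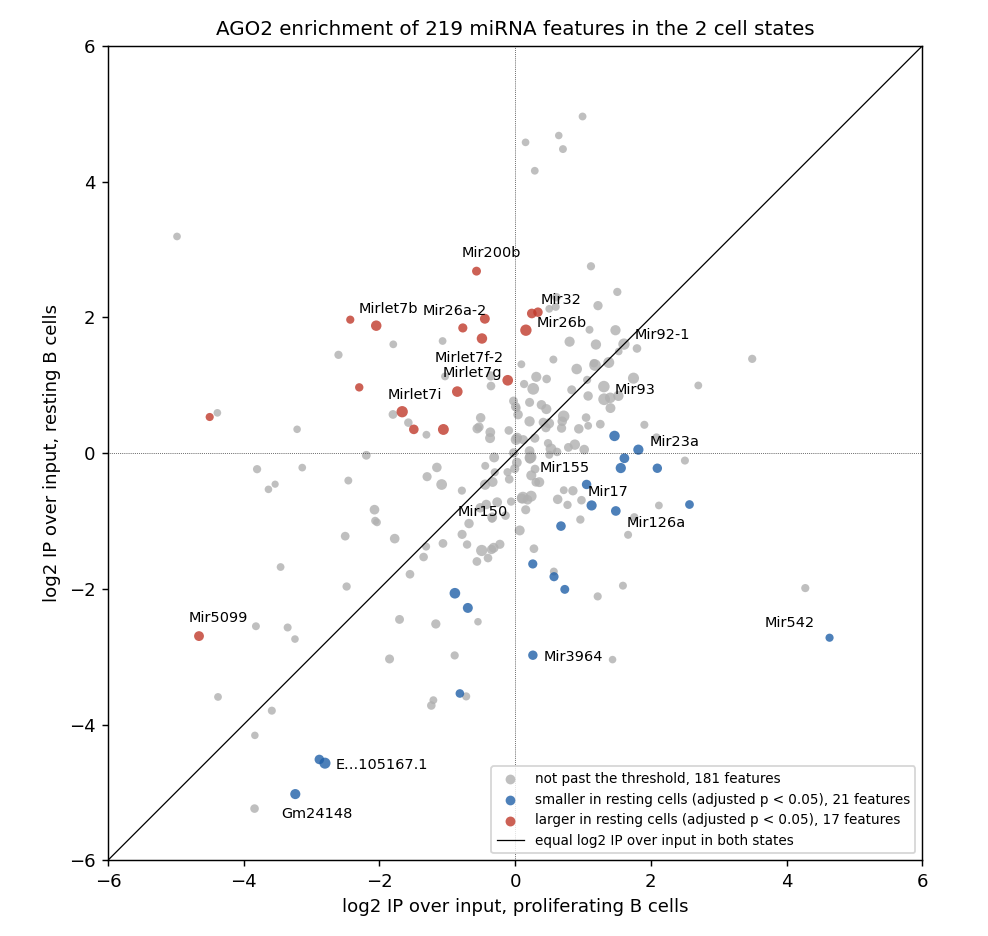
Log2 IP over input of each of 219 miRNA features in proliferating (x axis) and resting B cells (y axis), with larger points for more abundant features and the line of equal ratios. The 17 red features lie above the line (larger ratio in resting cells) and the 21 blue ones below it. The called let-7 features sit above 0 in resting and below 0 in proliferating cells, whereas Mir92-1 lies on the line.

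The let-7 family, which is known to repress Myc, Ras and Lin28 messages, showed the broadest change. Of the 14 genes on the let-7 list 10 were tested, and 6 of them had a larger IP over input in resting cells (7.76% of all features did), with none smaller. All 10 changes were positive, with a median of 2.12 beside -0.17 over all features. Summed over the list, let-7 took 5.004% and 4.54% of the counts of the resting inputs and 7.89% and 6.91% of the resting IPs. It took 9.13% and 8.15% of the proliferating inputs but 1.85% and 2.87% of the proliferating IPs. The summed family was thus a larger part of the input and a smaller part of the IP in proliferating than in resting cells. Mirlet7i made up most of the sum in the inputs, with 3.41% and 3.02% of resting and 6.64% and 5.86% of proliferating input counts. The rise in the input is therefore not shown for each member. Mirlet7e and Mirlet7f-1, each of which overlaps another feature, had no count in any library.

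Mirlet7b (chromosome 15, 85707319 to 85707403, plus strand, within Lncppara) had the smallest p-value of all 219 features. Its level was 2938 and 2695 CPM in the resting inputs, 13035 and 7663 CPM in the resting IPs, 2604 and 2355 CPM in the proliferating inputs and 632 and 568 CPM in the proliferating IPs. The inputs of the 2 states were close to each other, while the resting IPs lay above and the proliferating IPs below all inputs. The ratio was 15.2-fold larger in resting cells (log2 3.92, SE 0.41, adjusted p = 1.3e-09), from a log2 IP over input of 1.88 in resting and -2.05 in proliferating cells.

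Mirlet7i (chromosome 10, 122985640 to 122985724, minus strand) was the most abundant let-7 feature. It stood at 34310 and 28723 CPM in the resting inputs, 55138 and 41043 CPM in the resting IPs, 51817 and 43908 CPM in the proliferating inputs and 11056 and 19143 CPM in the proliferating IPs. The proliferating IPs were the lowest libraries, and the resting IPs overlapped the proliferating inputs. The change was 2.27 (SE 0.35, adjusted p = 1.2e-05), with a log2 ratio of -1.66 in proliferating cells and of 0.61 in resting cells, where it missed the threshold (adjusted p = 0.059).

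Mirlet7f-2 (chromosome X, 151912346 to 151912428, within Huwe1) had its call in the other state, being enriched in resting cells without a call in proliferating ones. As for Mirlet7i, its log2 ratio was positive in resting (1.69) and negative in proliferating cells (-0.49). Its values were 2764 and 2533 CPM in the resting inputs, 9155 and 7921 CPM in the resting IPs, 2510 and 2358 CPM in the proliferating inputs and 1443 and 2025 CPM in the proliferating IPs. The change was 2.18 (SE 0.39, adjusted p = 1.3e-04). The let-7f-5p arm is also made by Mirlet7f-1 on chromosome 13, so these reads may not all stem from the gene within Huwe1. Mirlet7g (chromosome 9, 106178840 to 106178927, within Wdr82) had 4745 and 4754 CPM, 10100 and 7702 CPM, 6617 and 5499 CPM, and 2678 and 4033 CPM in the same order of groups. It rose over input in the resting IP and fell below it in the proliferating IP, a change of 1.76 (SE 0.38, adjusted p = 0.0012).

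The other let-7 features were weaker or rested on few counts. Mirlet7d changed by 1.18 (SE 0.38, adjusted p = 0.023), but was not called without resting input replicate 2 (1.002), resting IP replicate 1 (0.84) or either proliferating input (1.10 and 1.26). Mirlet7a-1, with 19.6 and 41.8 CPM in the resting inputs, changed by 3.27 (SE 1.11, adjusted p = 0.035) and was called in 3 of the 8 fits that leave out a library, whose values ran from 2.34 to 3.97. The arm that Mirlet7a-1 shares with Mirlet7c-2 is the 3p arm, which is not the arm the family is known for. For Mirlet7a-2 only the 3p arm was matched, so a main arm shared with Mirlet7a-1 could not be checked. Reads of near-identical copies may be split between features, so the values of these genes may not be independent. Mirlet7c-2 (2.37, SE 0.92, adjusted p = 0.070), Mirlet7c-1 (2.05, SE 1.62), Mirlet7a-2 (2.02, SE 1.02) and Mir98 (0.52, SE 0.49) did not pass the threshold. Mir98, the most abundant of these, stood at 171 and 187 CPM, 270 and 260 CPM, 683 and 562 CPM, and 622 and 662 CPM in resting input, resting IP, proliferating input and proliferating IP.

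Mir7j, the gene of let-7j, also had a larger ratio in resting cells (1.84, SE 0.48, adjusted p = 0.0072). Its mature sequence differs from let-7i in 1 base over the length of let-7i, G8U counted from the 5′ end with the base of let-7i first, and this base lies in the seed. Its counts were a near-constant 1.28% to 1.95% of those of Mirlet7i in all 8 libraries, so its values are not independent of that feature. It was not called without proliferating input replicate 1 (1.70).

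The miR-26 genes lie within the Ctdsp phosphatase genes and are known to act against growth and Ezh2. Both tested features had a larger ratio in resting cells. Mir26b (chromosome 1, 74394310 to 74394394, plus strand, within Ctdsp1) stood at 26414 and 28026 CPM in the resting inputs, 109957 and 81068 CPM in the resting IPs, 18782 and 18748 CPM in the proliferating inputs and 20572 and 21329 CPM in the proliferating IPs. The resting IPs lay above all other libraries, and in proliferating cells IP and input were close. Its change was 1.65 (SE 0.32, adjusted p = 2.8e-04), from a log2 ratio of 1.81 in resting and 0.16 in proliferating cells.

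Mir26a-2 (chromosome 10, 126995530 to 126995613, within Ctdsp2) held far fewer counts, with 174 and 111 CPM in the resting inputs, 591 and 427 CPM in the resting IPs, 67.8 and 63.2 CPM in the proliferating inputs and 39.5 and 37.3 CPM in the proliferating IPs. It changed by 2.61 (SE 0.63, adjusted p = 0.0031). Its mature arm is identical to that of Mir26a-1 and differs from that of Mir26b at U11C and U21C, counted from the 5′ end with the base of miR-26b first. How reads shared with Mir26a-1 were counted is not known, so these values may not give the level or ratio of miR-26a. The counts of Mir26a-2 were 0.175% to 0.657% of those of Mir26b and lay lowest against it in the proliferating IPs.

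**Figure D2:**
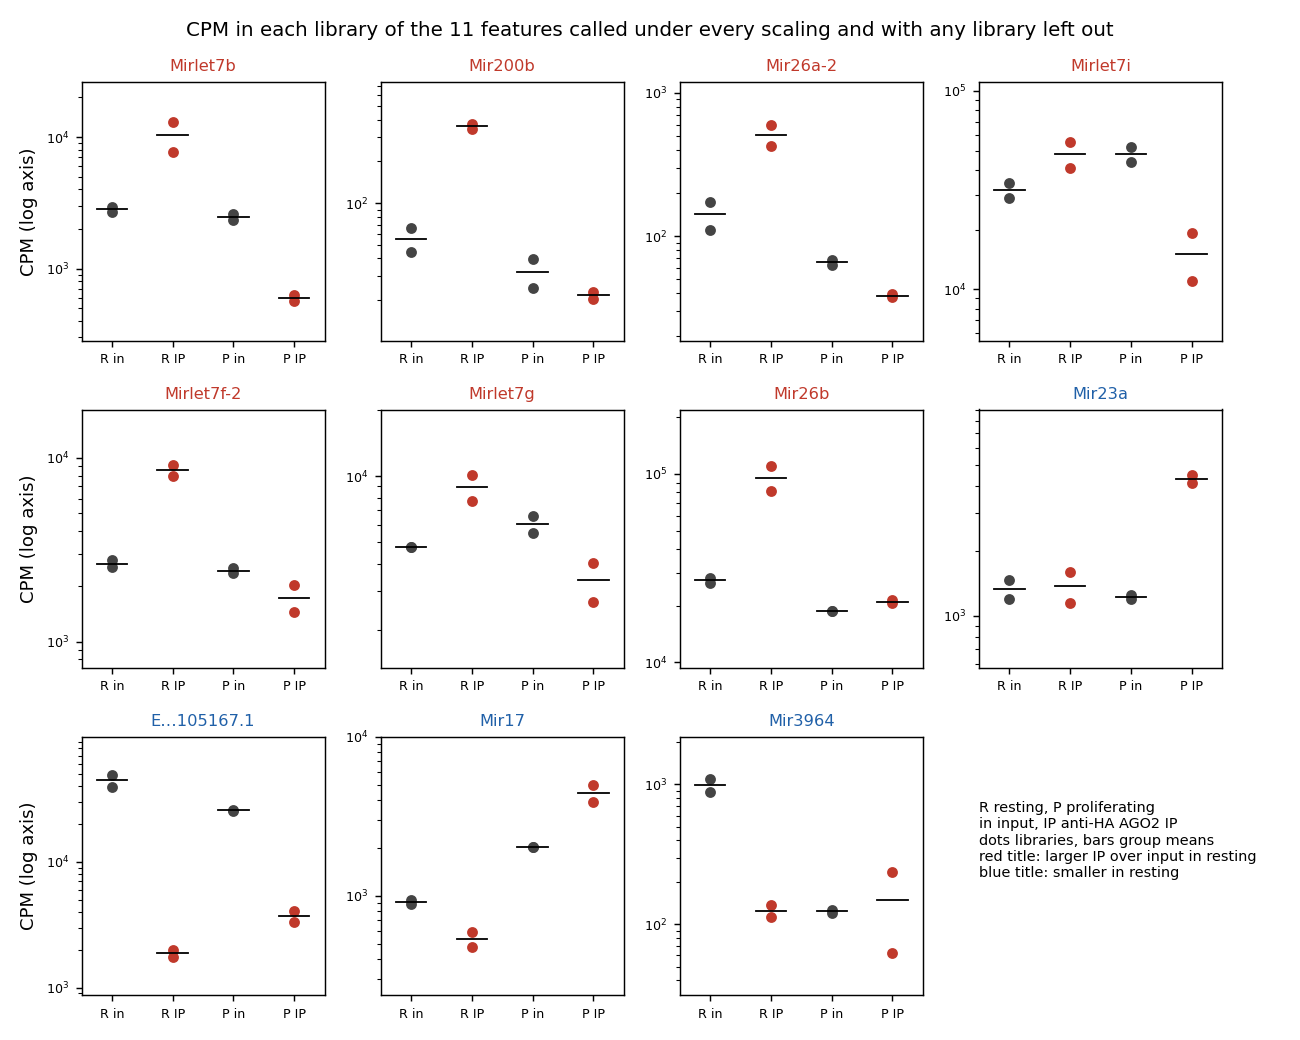
CPM (log axis) in each library of the 11 features called under every scaling and with any library left out; dots are libraries, bars are the means of 2. For Mirlet7b the resting IPs lie above and the proliferating IPs below all inputs, and Mir17 shows the reverse within each state.

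The miR-200 family, epithelial miRNAs that target Zeb1 and Zeb2, was scarce in these cells. The epithelial list (5 miR-200 genes with Mir203 and Mir205, all 7 with a count) summed to 0.204% and 0.233% of all counts of the resting inputs and to 0.245% and 0.268% of those of the resting IPs. In proliferating cells it summed to 0.0858% and 0.0956% of the input and 0.0665% and 0.0510% of the IP counts. Of its 6 tested members 2 had a larger ratio in resting cells (7.76% of all features did) and none a smaller one (9.59%), with 4 positive and 2 negative changes. Any part of other cell types in these values was not tested.

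Mir200b (chromosome 4, 156055681 to 156055750, minus strand) stood at 44.8 and 66.3 CPM in the resting inputs, 372 and 346 CPM in the resting IPs, 39.5 and 24.6 CPM in the proliferating inputs and 20.5 and 22.9 CPM in the proliferating IPs. The resting IPs lay above all other libraries, a change of 3.25 (SE 0.77, adjusted p = 0.0025). Mir200c had 207 and 224 CPM, 983 and 836 CPM, 152 and 281 CPM, and 274 and 271 CPM in the same order, a change of 1.74 (SE 0.52, adjusted p = 0.015). It was not called without resting input replicate 1 (1.69) or proliferating input replicate 2 (1.24).

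The 2 genes called both make a 3p arm with the seed AAUACUG, but the counts do not show which arm was read. Mir429, whose 3p arm has the same seed, changed by 1.69 (SE 1.10) and did not pass the threshold. Mir200a and Mir141 make a 3p arm whose seed differs by U4C (counted from the 5′ end, the base of miR-200b or miR-200c first), and changed by -0.27 (SE 0.95) and 0.92 (SE 0.51), neither past the threshold (the value of Mir200a was 0.14 under library totals). Mir200a lies beside Mir200b and Mir429 on chromosome 4, and Mir141 beside Mir200c on chromosome 6. Mir203, of another family, stood at 756 and 1177 CPM in the resting inputs, 459 and 743 CPM in the resting IPs, 212 and 147 CPM in the proliferating inputs and 261 and 151 CPM in the proliferating IPs, and its change of -0.87 (SE 0.53) did not pass. The difference between the groups of genes with either seed was not tested.

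Mir32 (chromosome 4, 56895229 to 56895298, within Tmem245) carries the seed of miR-25 and miR-92a. It stood at 426 and 364 CPM in the resting inputs, 1741 and 1543 CPM in the resting IPs, 240 and 235 CPM in the proliferating inputs and 401 and 166 CPM in the proliferating IPs. The change was 1.81 (SE 0.51, adjusted p = 0.010), and it was not called without either proliferating input (1.79 and 1.82) or without proliferating IP replicate 2 (1.30). Of the 6 tested features with this seed it was the only one called. Mir25 (-0.33, SE 0.32) and Mir92-1 (0.00, SE 0.32) were enriched in the IP of both states.

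Several features called larger in resting cells are known from other cell types or rest on 1 library. Mir223, the myeloid miRNA and the single member of the myeloid list, differed between libraries of 1 group: 11590 and 27131 CPM in the resting inputs and 18234 and 31056 CPM in the resting IPs, against 1725 and 2537 CPM and 1238 and 812 CPM in proliferating input and IP. Its ratios overlapped between the states, and its change of 1.40 (SE 0.43, adjusted p = 0.018) was called under none of the 4 other scalings and in 2 of the 8 fits that leave out a library. Without resting IP replicate 2 it was 0.68, and without proliferating IP replicate 1 it was 1.97. The part of myeloid cells in this result was not tested. Mir122, the liver miRNA, changed by 4.40 (SE 1.28, adjusted p = 0.013) on few counts, with 8.4 and 9.83 CPM in the resting inputs and at most 62.1 CPM in any library. It was not called without resting input replicate 1 (4.30), proliferating input replicate 1 (4.15) or proliferating IP replicate 2 (3.83).

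Mir6236, named after its values were seen, stood at 454 and 5352 CPM in the resting IPs, so that its change of 2.43 (adjusted p = 0.016) became -0.55 without resting IP replicate 2. ENSMUSG00000076258.1 (chromosome 16, within Zc3h7a) had 0 and 44.2 CPM in the resting IPs and 0 and 4.24 CPM in the proliferating ones, and its change of 5.03 (adjusted p = 0.035) became -1.99 without the same library. Neither was called under any of the 4 other scalings. Mir5099 (chromosome 12, 36816205 to 36816278) was depleted from the IP in both states, from 384 and 369 to 26.1 and 93.8 CPM in resting and from 3253 and 2885 to 141 and 104 CPM in proliferating cells. Its change of 1.96 (SE 0.54, adjusted p = 0.0089) was called in 3 of the 8 fits with a library left out, which ranged from 0.52 to 2.54.

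The miR-17 clusters on chromosomes 14, X and 5, which promote proliferation and are induced by Myc, had 12 negative and 3 positive changes. Of all features tested, 120 had a negative and 99 a positive change. Signs of small changes depended on the scaling: under library totals the median of all features was 0.19 and Mir106b turned positive. All 15 genes of the list were tested. Of these, 2 had a smaller ratio in resting cells, near the share of all features (9.59%), and none a larger one. Their median change was -0.52, beside -0.17 over all features. Their summed share of all counts was higher in IP than in input in both states: from 11.1% and 11.05% to 17.6% and 19.4% in resting and from 23.7% and 24.0% to 38.8% and 41.3% in proliferating cells. IP exceeded input at an adjusted p under 0.05 for 6 of the 15 in resting (13.2% of all features) and for 11 in proliferating cells (13.2%).

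Mir17 (chromosome 14, 115043671 to 115043754, plus strand) was the only member of the list whose level fell below its input in resting cells at an adjusted p under 0.05. It stood at 938 and 882 CPM in the resting inputs, 476 and 591 CPM in the resting IPs, 2039 and 2036 CPM in the proliferating inputs and 3884 and 5015 CPM in the proliferating IPs. The ratio was 3.73-fold larger in proliferating cells (log2 change -1.90, SE 0.41, adjusted p = 0.0012). The gene's cluster neighbour Mir20a, with the same seed, was enriched in both states (0.81 in resting, 1.40 in proliferating cells) and changed by -0.59 (SE 0.38), which did not pass. Mir92-1 at the end of the same cluster had the same log2 ratio to within 0.01 in both states (1.61 and 1.60).

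Mir20b (chromosome X, 52742113 to 52742192), the other member called and named after its values were seen, had 1305 and 1145 CPM in the resting inputs, 1447 and 1472 CPM in the resting IPs, 3245 and 3429 CPM in the proliferating inputs and 8468 and 9951 CPM in the proliferating IPs. Its change of -1.21 (SE 0.38, adjusted p = 0.022) was called in 2 of the 8 fits with a library left out (-1.53 to -1.09). Its mature sequence differs from that of miR-17 at U10C and C12U, outside the seed, counted from the 5′ end with the base of miR-17 first. Mir93 within Mcm7, the most abundant feature of the proliferating IP, changed by -0.52 (SE 0.29, adjusted p = 0.24) and was called only without resting IP replicate 2 (-0.89). All 6 tested features with the seed of miR-17 had negative changes, from -1.90 to -0.23, of which that of Mir106b turned positive (at most 0.11) under 2 of the 4 other scalings. Without resting IP replicate 2, 5 members of the list were called smaller.

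**Figure D3:**
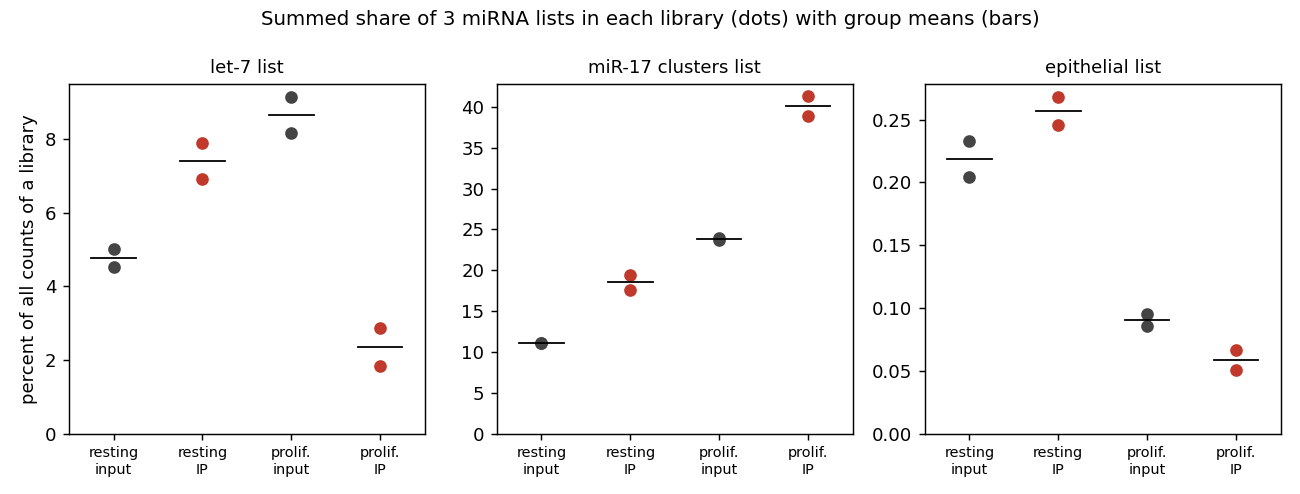
Summed share of the let-7, miR-17 cluster and epithelial lists in percent of all counts of each library; dots are libraries and bars the means of 2. Let-7 is lowest in the proliferating IPs (1.85% and 2.87%), whereas the miR-17 clusters are highest there (38.8% and 41.3%).

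The Mir23a cluster on chromosome 8 had smaller ratios in resting cells for both of its tested genes, with IP against input called in different states. Mir23a (84208518 to 84208592, plus strand) stood at 1190 and 1467 CPM in the resting inputs, 1600 and 1150 CPM in the resting IPs, 1251 and 1197 CPM in the proliferating inputs and 4509 and 4114 CPM in the proliferating IPs. The proliferating IPs alone stood apart, and the change was -1.77 (SE 0.41, adjusted p = 0.0025). Mir27a, the next gene on the strand, was at 2557 and 1776 CPM in the resting inputs, 394 and 498 CPM in the resting IPs, 1401 and 1337 CPM in the proliferating inputs and 827 and 862 CPM in the proliferating IPs. It was depleted from the resting IP (-2.28), and its change was -1.59 (SE 0.44, adjusted p = 0.0089). Mir27a was not called without resting input replicate 1 (-1.30), proliferating input replicate 1 (-1.62) or proliferating input replicate 2 (-1.55). Mir24-2, the remaining gene of this cluster, overlaps another feature and had no count in any library.

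In the paralogous cluster on chromosome 13, Mir23b was called and Mir27b was not. Mir23b changed by -1.69 (SE 0.47, adjusted p = 0.010), but its counts were 33.4% to 45.1% of those of Mir23a in all libraries, with no order by group, and reads of these near-identical miRNAs may be shared, so the value may not be that of the gene on chromosome 13. It was not called without resting input replicate 2 (-1.33), proliferating input replicate 2 (-1.48) or proliferating IP replicate 1 (-1.38). Mir27b, the neighbour of Mir23b, stood between 6907 and 9611 CPM in all 8 libraries and changed by 0.19 (SE 0.36, adjusted p = 0.79). miR-27a-3p and miR-27b-3p differ at C19U alone (from the 5′ end, the base of miR-27a first), and counts of Mir27a fell from 36.5% and 23.5% of those of Mir27b in the resting inputs to 4.09% and 7.02% in the resting IPs. Mir27a and Mir23b were named after their values were seen. 

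Mir3964 (chromosome 15, 29713331 to 29713404, minus strand) was abundant in the resting inputs alone. It stood at 885 and 1098 CPM there, at 138 and 113 CPM in the resting IPs, 121 and 126 CPM in the proliferating inputs and 239 and 62.8 CPM in the proliferating IPs. The ratio was 9.45-fold larger in proliferating cells (log2 change -3.24, SE 0.61, adjusted p = 2.3e-04). Without 1 library the change ran from -3.92 to -1.80, and the proliferating IPs differed from each other more than any other group.

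Of the 21 features with a smaller ratio in resting cells, 3 overlap a snoRNA or tRNA gene, against 10 of all 219 features and none of the 17 with a larger ratio. ENSMUSG00000105167.1 (chromosome 15, 80082847 to 80082954, minus strand, within Rpl3) overlaps Snord43. It stood at 39687 and 49523 CPM in the resting inputs, 1754 and 2004 CPM in the resting IPs, 25901 and 25606 CPM in the proliferating inputs and 3316 and 4067 CPM in the proliferating IPs. The IPs lay far below the inputs in both states, by a log2 ratio of -4.57 in resting and -2.80 in proliferating cells, a change of -1.77 (SE 0.34, adjusted p = 2.6e-04).

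Mir5121 within Rpl13a, named after its values were seen, overlaps Snord33. It fell from 1445 and 1231 to 35.1 and 84.4 CPM in resting and from 421 and 316 to 68.8 and 33.1 CPM in proliferating cells. Its change of -1.63 (adjusted p = 0.041) was called in 2 of 8 fits with a library left out (-2.66 to -0.82). Gm24148 within Ncl fell from 5397 and 5150 to 95.6 and 232 CPM in resting and from 1279 and 1225 to 162 and 104 CPM in proliferating cells, a change of -1.79 (SE 0.48, adjusted p = 0.0079). It was called in 5 of the 8 such fits and was lost without either proliferating input (-1.82 and -1.75) or proliferating IP replicate 1 (-1.21). Mir1983, which overlaps the tRNA gene n-TItat14, was instead enriched in the proliferating IP, at 1044 and 1022 CPM over inputs of 203 and 281 CPM, and had 81.2 and 44.2 CPM in resting input and 38.8 and 69.6 CPM in resting IP. It changed by -2.32 (SE 0.58, adjusted p = 0.0044), with no call without resting input replicate 1 (-1.82), proliferating input replicate 1 (-2.10) or proliferating IP replicate 1 (-2.06). Reads of the overlapping gene and of the miRNA feature cannot be told apart in these counts.

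Mir126a (chromosome 2, 26591357 to 26591429, within Egfl7) is the defining miRNA of endothelial cells, with Mir126b, which overlaps it and had no count. It stood at 174 and 241 CPM in the resting inputs, 76.9 and 155 CPM in the resting IPs, 489 and 614 CPM in the proliferating inputs and 2048 and 1038 CPM in the proliferating IPs. The change was -2.34 (SE 0.53, adjusted p = 0.0020), not called without proliferating input replicate 1 (-2.18) or proliferating IP replicate 1 (-1.53). The part of endothelial cells in this result was not tested. Mir125a (chromosome 17, within Spaca6) was depleted from the resting IP, from 549 and 364 to 169 and 87.1 CPM, and had 42.4 and 84.2 CPM in input and 113 and 74.7 CPM in IP of proliferating cells. It changed by -2.40 (SE 0.66, adjusted p = 0.0089), with no call without resting input replicate 1 (-2.07), proliferating input replicate 1 (-1.96) or proliferating IP replicate 1 (-1.85).

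Mir132, induced by Creb activity and on the activation list, had few counts in resting cells, 33.6 and 24.6 CPM in the inputs and 1.49 and 14.7 CPM in the IPs, against 186 and 147 CPM and 268 and 288 CPM in proliferating cells. Its change of -2.74 (SE 0.87, adjusted p = 0.023) was called under 1 of the 4 other scalings and in 2 of the 8 fits with a library left out (-5.14 to -1.81). Mir339 had 4361 and 2926 CPM in the resting inputs, 4400 and 1851 CPM in the resting IPs, 522 and 737 CPM in the proliferating inputs and 1292 and 2406 CPM in the proliferating IPs. Its change of -1.78 (SE 0.48, adjusted p = 0.0089) was lost without either proliferating input (-1.55 and -2.04) or proliferating IP replicate 2 (-1.26). Mir455 within Col27a1 changed by -3.33 (SE 0.96, adjusted p = 0.012), with 5.65 and 7.02 CPM in the proliferating inputs, and was lost only without proliferating input replicate 1 (-3.17).

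Mir542 had no count in the proliferating inputs, so its fitted change is no estimate of size. With a floor of 3 counts over that group, IP over input was 5.58-fold larger in proliferating cells. The counts of the other groups were taken as exact, so the value is no strict lower bound. This value rests on 8 counts in the proliferating IPs together (5.85 and 3.39 CPM). Mir542 had 58.8 and 113 CPM in the resting inputs and 19.4 and 5.36 CPM in the resting IPs. Mir674 (-1.75, SE 0.49), Mir301b (-1.89, SE 0.59) and Mir1249 (-2.73, SE 0.94) were depleted from the resting IP. They were called in 6, 3 and 2 of the 8 fits with a library left out. Mir29c (-1.18, SE 0.39) and Mir350 (-1.52, SE 0.53), named after their values were seen, were called in 3 each.

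**Figure D4:**
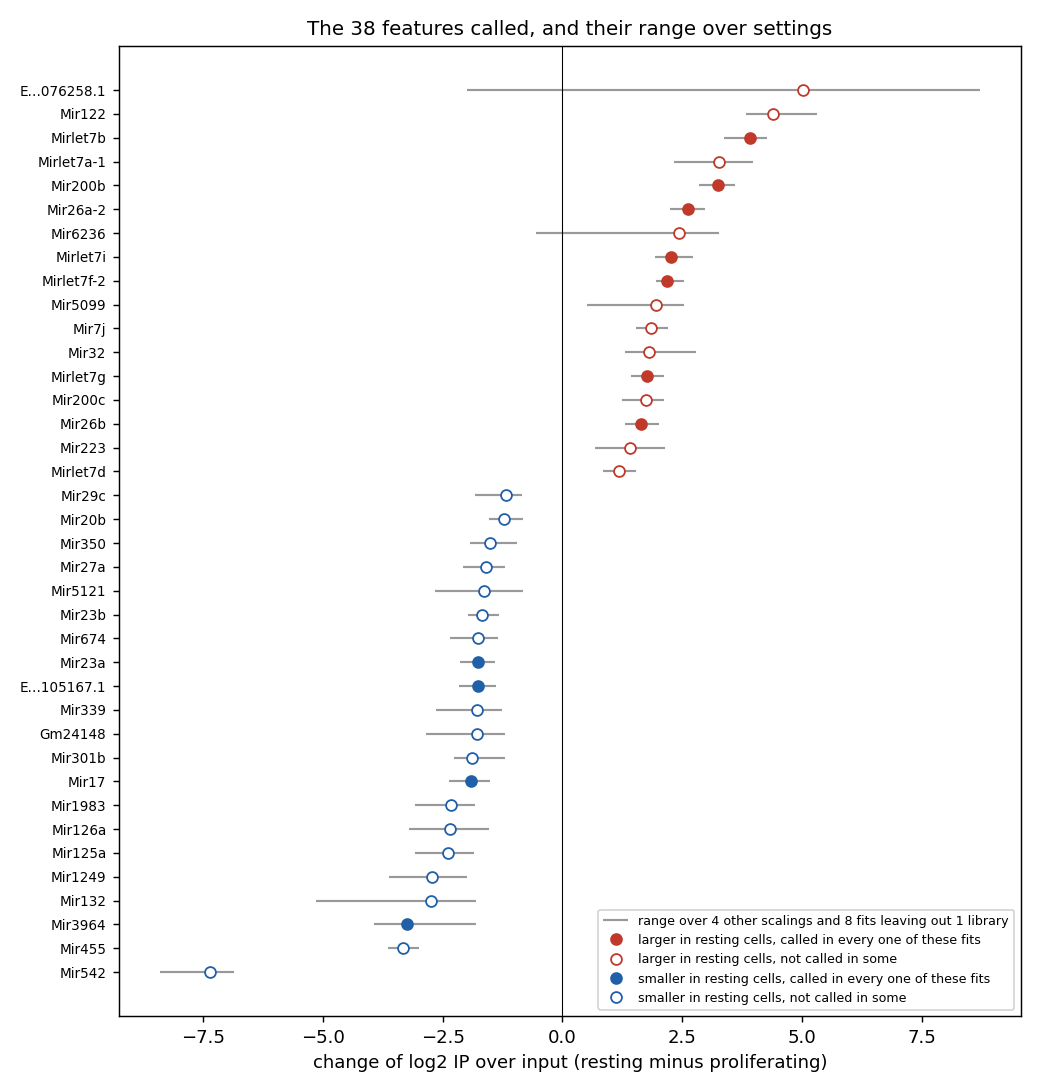
Change of log2 IP over input (x axis) of each of the 38 features called, with the range over 4 other scalings and 8 fits that leave out 1 library (grey lines). Filled points were called in every one of these fits; the ranges of Mir6236 and ENSMUSG00000076258.1 cross 0.

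Seeds of the arms that genes can make were used to compare members that differ in genome position and host gene, without knowing which arm was counted. Members of a seed are no replicates, since reads of near copies can be split between them. All 9 tested features matched to the let-7 seed GAGGUAG had positive changes (0.52 to 3.92, 6 called). So had both with the miR-26 seed UCAAGUA and all 3 with the miR-200b seed AAUACUG (2 called). Mirlet7a-2 (2.02) is not among the 9, since only its 3p arm was matched. All 6 with the miR-17 seed AAAGUGC were negative (2 called), apart from the turn of Mir106b under 2 other scalings. Of all 219 features, 99 had a positive and 120 a negative change, with 7.76% called larger and 9.59% called smaller. The seeds given here are examples from 41 with 2 or more tested features. Other seeds also had a single sign, such as the miR-19 seed GUGCAAA, with 3 negative changes and no call. The 6 features with the miR-15 and miR-16 seed AGCAGCA, known to restrain the cell cycle, had no call and changes from -0.64 to 0.24. The 6 with the miR-25 seed AUUGCAC ranged from -0.99 to 1.81 with Mir32 alone called.

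Neighbours on 1 strand did not always share a call. Mirlet7f-2 (2.18) and Mir98 (0.52) lie within the same gene, Huwe1, and share their seed. Reads of let-7f may also stem from Mirlet7f-1 on chromosome 13, so the value of Mirlet7f-2 may not be that of this locus alone. Mirlet7d (1.18) and Mirlet7a-1 (3.27) were both called, as were Mir23a and Mir27a. In 28 groups of features within 10 kb of each other on a strand, these were the only ones with more than 1 call. Whether the members of a pair differed from each other was not tested.

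**Figure D5:**
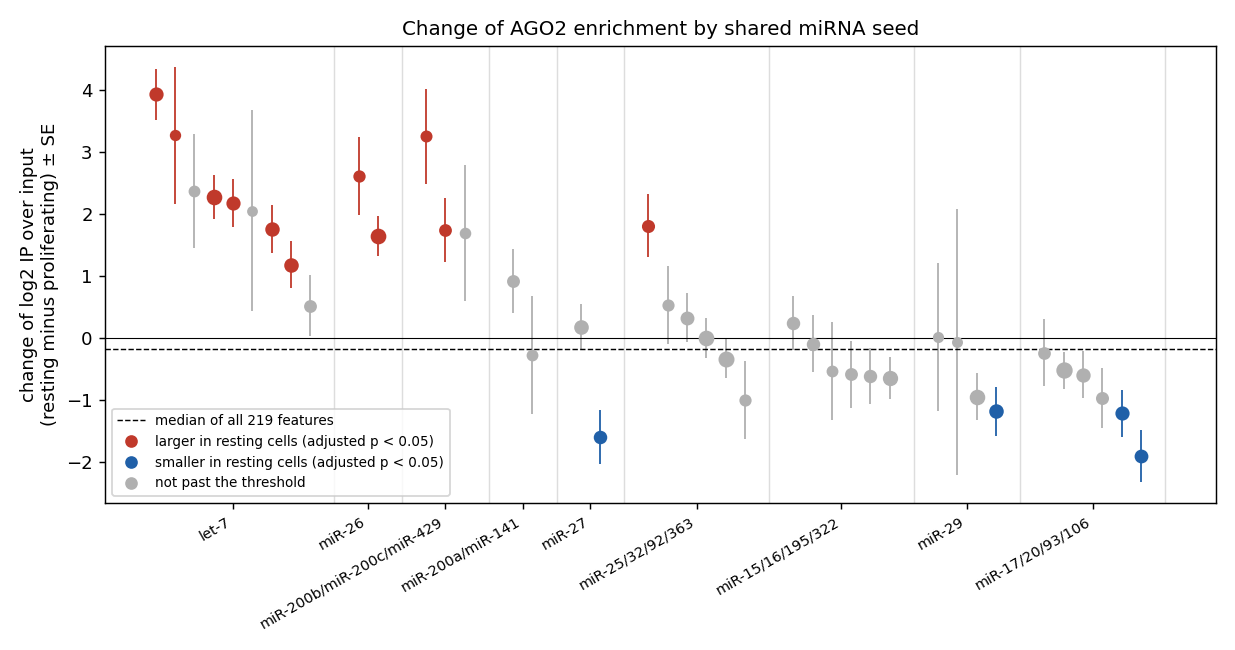
Change of log2 IP over input ± SE (y axis) of the tested features of 9 seed families, larger points for more abundant features; the dashed line is the median of all 219 features (-0.17). Let-7 and miR-26 features lie above 0 and miR-17 seed features below it, of which Mir106b turned positive (at most 0.11) under 2 other scalings.

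Among the 10 most abundant features Mirlet7i and Mir26b were called, beside 17.4% of all 219 features. The abundant features given next did not pass the test. Mir150, which restrains Myb, was below its input in resting cells, at 176603 and 201238 CPM in the IPs, and had 35815 and 19642 CPM in the proliferating IPs. Its change was -0.77 (SE 0.33, adjusted p = 0.093). It was called without resting IP replicate 1 (-0.79), resting IP replicate 2 (-1.17) or proliferating IP replicate 2 (-1.14), and the change was -0.04 at its smallest with another library left out. Mir155 stood higher in proliferating cells in input and IP alike, with 10490 and 10990 CPM in the resting and 125568 and 144947 CPM in the proliferating IPs, and its ratio changed by -0.29 (SE 0.31, adjusted p = 0.57). Mir21a was enriched in both states (log2 ratios of 1.30 and 1.18) and changed by 0.12 (SE 0.31). Mir342 changed by -0.17 (SE 0.32). Mir146, the gene of miR-146a, changed by 0.68 (SE 0.31, adjusted p = 0.13), with a call without resting IP replicate 2 (0.65) and under library totals (1.03). Mir29a was depleted from the resting IP (-1.44) and changed by -0.94 (SE 0.38, adjusted p = 0.076), with a call without resting IP replicate 1 (-1.81) or replicate 2 (-0.76). A p above the threshold does not show equal loading of these miRNAs in the 2 states.

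The remaining lists had few calls, to be read against 7.76% of all features with a larger and 9.59% with a smaller ratio in resting cells. Among 11 tested members of the resting lymphocyte list 2 had a larger (Mir26b, Mir26a-2) and 1 a smaller ratio in resting cells (Mir29c), with a median of -0.07. Among 11 of the activation list 1 was smaller (Mir132), which is near that share, and among 16 of the haematopoietic list 3 were (Mir23a, Mir27a and Mir23b, which may share reads with Mir23a). The mirtron list, which holds miRNAs spliced from short introns and others such as Mir484, had 1 smaller ratio (Mir1249) among 7. The miR-130 and miR-301 list had 1 (Mir301b) among 3, with a median of -1.21. Single calls in lists this short are no result about them. In the latter list Mir301 changed by -1.21 (SE 0.44, adjusted p = 0.051) and Mir130b by -0.77 (SE 0.45). No call fell among 3 tested members each of the p53-linked, miR-7 and stromal lists, or among 7 of the miR-101 and miR-140 list. The stromal members Mir99a (4.05, SE 1.70), Mir10b (0.87, SE 1.31) and Mir10a (0.84, SE 0.42) had positive changes. The p53-linked members changed by -0.02 (Mir34a, SE 0.40), 0.19 (Mir192, SE 0.42) and -0.34 (Mir194-2, SE 1.07), and the miR-7 genes by -0.57 (Mir7-1, SE 0.42), -0.32 (Mir7-2, SE 0.60) and -0.29 (Mir7b, SE 0.60). Mir144, the single tested erythroid member, changed by 2.16 (SE 1.04, adjusted p = 0.16). The neural list and the list of miRNAs cut by AGO2 itself had no tested member.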

How the data were processed

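Small RNA libraries (QIAseq, single-end) of input and anti-HA AGO2 IP RNA were processed with STAR 2.7.9a and SAMtools 1.15 on mm10, per the submitters' processing notes. The deposited values are raw counts per miRNA gene of alignments that the file headers name as deduplicated. The sources used here give neither the counting tool nor how it used strand and multiply mapped reads. Features of 39 to 442 nt (median 89) were named through RefSeq by exact position (1179 of 2202), and host genes and overlaps were taken by gene span.

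Features were kept by filterByExpr with a minimum count of 10. edgeR 4.0.16 (R 4.3.3) fitted 4 group means with TMM factors (0.797 to 1.34) by quasi-likelihood. The 3 contrasts (the change and IP against input in each state) had 2-sided tests, Benjamini-Hochberg adjusted, with a threshold of 0.05. SE is the absolute log2 change divided by the square root of F. CPM use TMM, and shares do not. Alternatives were 4 other scalings, filters, DESeq2 1.42.0, limma 3.58.1's voom, replicate blocks and each library left out.

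The titles give the input and IP libraries of a state matching numbers, without saying whether a number marks a single sample. Same-numbered libraries did not deviate together (correlations from -0.12 to 0.18 over 219 features), so the main fit did not use the numbers as pairs. With so few libraries a group, this does not exclude a pairing. The ratios of each IP to each input library also cross the numbers. The members, the 18 lists and the rules were chosen with earlier results of these data known. Named features were those called whose mean CPM reached 10 and whose ratios lay apart between states (15 at most in each direction), the 10 most abundant, up to 4 members of each list (all for lists of up to 6 tested members), let-7 and a few lymphocyte miRNAs. Any other is marked.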

Additional observations from a re-analysis of the deposited data

Results flagged for a closer look

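The difference between the IP-over-input effects of the 2 states passed its own test (edgeR's interaction term, adjusted p under 0.05) for 38 features, and each is listed with its log2 change, resting minus proliferating. The changes with a larger ratio in resting cells were ENSMUSG00000076258.1 5.03, Mir122 4.40, Mirlet7b 3.92, Mirlet7a-1 3.27, Mir200b 3.25, Mir26a-2 2.61, Mir6236 2.43, Mirlet7i 2.27 and Mirlet7f-2 2.18. The others in that direction were Mir5099 1.96, Mir7j 1.84, Mir32 1.81, Mirlet7g 1.76, Mir200c 1.74, Mir26b 1.65, Mir223 1.40 and Mirlet7d 1.18. The changes with a smaller ratio in resting cells were Mir542 -7.35, Mir455 -3.33, Mir3964 -3.24, Mir132 -2.74, Mir1249 -2.73, Mir125a -2.40, Mir126a -2.34, Mir1983 -2.32, Mir17 -1.90, Mir301b -1.89 and Gm24148 -1.79, where the value of Mir542 depends on the prior count because its proliferating inputs had no count. The others in that direction were Mir339 -1.78, ENSMUSG00000105167.1 -1.77, Mir23a -1.77, Mir674 -1.75, Mir23b -1.69, Mir5121 -1.63, Mir27a -1.59, Mir350 -1.52, Mir20b -1.21 and Mir29c -1.18. With 2 libraries a group, no library could be tested as an outlier of its group.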

How the results depend on the processing

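The 38 features called became 22 with upper-quartile factors and 25 with DESeq2 size factors, and ranged from 15 to 49 with a library left out. The 17 called larger became 11 at a minimum count of 50 and ranged from 9 to 16 with a library left out. The 21 called smaller became 7 with library totals, 7 with upper-quartile factors and 13 with DESeq2 size factors, and ranged from 5 to 33 with a library left out. The 59 features called for IP against input in proliferating cells ranged from 31 to 65 with a library left out, with 31 without proliferating IP replicate 2 and 35 without proliferating input replicate 1. The 63 in resting cells ranged from 49 to 71. Centring on the median, chosen after seeing the data, gave 19 larger and 16 smaller. The replicate number as a block gave 18 larger and 22 smaller (40 in all, the 17 and 21 among them), and a replicate block within each state gave 14 and 18. The cause of these differences was not tested.

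2 called features changed sign with a library left out, ENSMUSG00000076258.1 (range -1.99 to 8.71) and Mir6236 (-0.55 to 3.28). Among the other features named by rule, changes of sign concern some that were not called, and features outside the rule are not listed except Mir106b, which turned positive with library totals and upper-quartile factors (at most 0.11). With library totals Mir34a became 0.35, Mir342 0.19, Mir200a 0.14, Mir155 0.0928, Mir101a 0.0857, Mir7b 0.0844, Mir25 0.0395, Mir7-2 0.0289 and Mir194-2 0.00918. With upper-quartile factors Mir34a became 0.30, Mir342 0.13, Mir200a 0.0457 and Mir155 0.0222. Mir34a was 0.0959 with DESeq2 size factors, 0.0941 with the DESeq2 test, 0.21 with no filter and 0.15 centred on the median, and Mir342 was 0.0343 with no filter. Mir92-1 was -0.0741 with TMM factors computed without snoRNA or tRNA overlaps, -0.0371 at a minimum count of 50, -0.00558 with a replicate block and -0.00162 with a replicate block within state. With a library left out, the ranges were -4.62 to 3.01 for Mirlet7c-1, -0.22 to 1.41 for Mir10b, -0.14 to 0.45 for Mir192, -0.16 to 0.52 for Mir27b, -0.16 to 0.63 for Mir21a and -0.31 to 0.14 for Mir92-1. They were -0.39 to 0.27 for Mir34a, -0.56 to 0.0208 for Mir342, -1.62 to 0.37 for Mir200a, -0.63 to 0.28 for Mir101a, -0.61 to 0.34 for Mir7b, -0.91 to 0.10 for Mir7-2 and -1.55 to 1.17 for Mir877. Inputs held fewer counts than IPs, which limits the precision of ratios of scarce features: the median SE of the change was 0.87 for features not called.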
